A study of Mus musculus with 24 samples.

Results

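Neurogenin 3, the product of Neurog3, is the basic helix-loop-helix factor that commits cells of the embryonic pancreatic duct to the endocrine lineage. Expression profiles were compared between pancreatic cells that had switched on the Neurog3 locus with and without a working copy of that gene, in embryos of dams fed a normal diet. The members were all pancreas libraries of that diet with a single genotype, which gave 4 mutant and 3 control libraries, 7 of the 24 libraries in the series. They were chosen by library title, not by any measured value. The normal-diet library titled control 1 was left out because its description gives it a mixed genotype, and its values are set out with the closing observations.

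All 7 libraries came from E15.5 mouse embryos carrying an allele in which eGFP cDNA takes the place of the Neurog3 coding sequence, so every cell sorted, in either group, carried at least 1 null copy. Homozygous embryos (Ngn3eGFP/eGFP, mutant) lack neurogenin 3, and per the series' design text their eGFP-positive cells stand at the point of commitment but have not passed it. Heterozygous embryos (Ngn3eGFP/+, control) keep 1 working copy, and their eGFP-positive cells are committed endocrine cells. Dams were heterozygous, were 6 weeks old when the diet began, ate it for 2 weeks before mating with heterozygous males on control diet, and stayed on it until collection. Pancreas was dissociated with trypsin, and RNA of sorted eGFP-positive cells was depleted of ribosomal RNA and sequenced in strand-specific libraries. Each pool held embryos of both sexes, as labelled, but it is not stated whether libraries came from separate litters, so p-values measure the spread between these libraries, which may be partly technical.

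The genotype field of the labels goes against the titles: where the title reads control the field reads Ngn3eGFP/eGFP, and where the title reads mutant it reads Ngn3eGFP/+. The groups here follow the titles, and the Neurog3 level, given first below, followed the titles as well. Every direction in the text rests on that choice.

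As background, neurogenin 3 is expressed briefly in cells of the bipotent trunk epithelium of the pancreas, where Notch signalling restrains it. It switches on a second wave of transcription factors, among them NEUROD1, INSM1, NKX2-2 and PAX4, which lead cells out of the cell cycle, out of the epithelium and into the alpha, beta, delta, epsilon and PP cell fates. The other fates open to embryonic pancreatic epithelium are duct, from the trunk, and acinar, from the tips.

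The libraries held between 22361035 and 31997036 counted reads, and they differed in quality. A single noncoding RNA, Gm26917, took 10.7% to 32.7% of the reads in controls and 16.3% to 66.9% in mutants, and duplicates made up 48% to 79.07% and 53.42% to 79.38%. The highest shares of both among the 7 were those of mutant library 2, which also detected 17861 genes where the others detected 24599 to 30693. On the first principal component, which held 68.1% of the variance, the mutants lay at 19.4 to 136 and the controls at -82.5 to -72.7, with mutant library 2 at the far end. Xist, expressed from the inactive X of females, ran from 61.5 CPM in mutant library 2 to 752 CPM in mutant library 1, and Ddx3y, from the Y chromosome, was 22.5 to 24.2 CPM in controls and 11.6 to 20.3 CPM in mutants. Levels are given throughout as CPM, the counts scaled to a common library size by the TMM method, and values are listed in the order control library 2, 3, 4 and mutant library 1, 2, 3, 4.

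Neurog3 (ENSMUSG00000044312.4, GRCm38.p6, chr10:62133090-62134763), the targeted gene, had levels of 186, 156 and 156 CPM in the controls and 7.59, 15.8, 7.48 and 8.65 CPM in the mutants. All mutant libraries lay below all controls, and the log2 difference, mutant minus control, was -4.09 (SE 0.29, adjusted p = 6.07e-05), 17-fold lower in the mutants. These gene-level counts cannot separate reads of untranslated regions that the allele keeps from reads of the coding part it lacks. In these bulk libraries, fewer cells that express a gene and less of its RNA in each cell cannot be told apart.

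Loss of the gene was accompanied by a large fall of endocrine genes and a smaller rise of many others. Of 21035 genes with enough reads to test, 1499 fell in the mutants (7.13%) and 780 rose (3.71%), by edgeR's quasi-likelihood test at an adjusted p below 0.05. The falls were far larger. The genes that fell had a median log2 difference of 2.71 in size, and 681 of them exceeded 3, while the genes that rose had a median of 1.01 and none exceeded 3. Protein-coding genes made up 758 of the genes that rose and 1200 of those that fell, and long noncoding RNAs made up 15 and 155. The groups' values did not overlap for 28.2% of all tested genes.

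The number of genes that rose depended on which libraries were used. It was 83 without control library 2, 67 without control library 3, 355 without control library 4, 159 without mutant library 3 and 462 without mutant library 4, but 1716 without mutant library 2, a set that included all 780. The number that fell was 759, 761, 922 and 937 without control libraries 2, 3 and 4 and mutant library 3, and 2312 without mutant library 2, which included all 1499. No gene was called in opposite directions in any of these fits. By limma on log2(FPKM + 1), 10 genes rose and 1227 fell, so nearly all rises described here ended on that scale. FPKM divide by all counted reads, Gm26917 included, and no TMM scaling was applied to them. The median log2 difference of tested genes was -0.239 there and -0.04 in the main fit. The part of this shift in the lost rises was not tested.

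**Figure D1:**
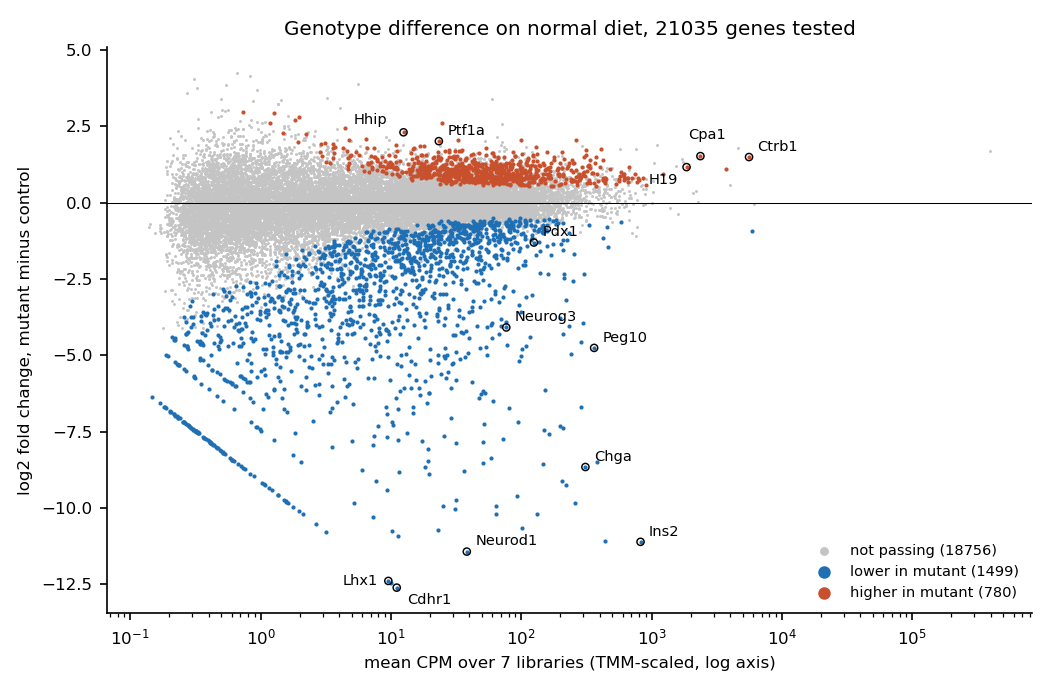
Log2 difference (mutant minus control, vertical axis) against mean level over the 7 libraries (CPM on a log scale, horizontal axis) for the 21035 tested genes, with genes that passed the test in colour. The 1499 genes that fell reach differences beyond -10, while those that rose stay below 3.

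Most early endocrine transcription factors fell in the mutants, several of them to near 0 and others in part. Of 24 early endocrine factors, 22 could be tested, 19 fell and none rose, against 7.13% and 3.71% of all tested genes, and their median log2 difference was -6.18, against -0.04 for all genes. In each fit with 1 library left out, 19 were lower. The 3 that did not pass were Sox4, Sox11 and Insm2.

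Neurod1, a helix-loop-helix factor that carries the endocrine programme forward, had levels of 79.5, 101 and 87 CPM in the controls. In the mutants it was counted 3 times in library 1 and 0 times in the other 3 libraries (adjusted p = 1.63e-05). Insm1, a zinc-finger factor needed for endocrine differentiation, fell from 473, 283 and 288 CPM to 6.23, 4.86, 5.26 and 3.51 CPM, a log2 difference of -6.13 (SE 0.30, adjusted p = 1.63e-05). For both genes every mutant library was more than 10 times below the lowest control.

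Factors that direct endocrine fates were also lost. Pax4, which favours beta and delta fates, was at 51.9, 37.7 and 44.5 CPM in the controls and 0.0315, 1.06, 0 and 0 CPM in the mutants (log2 difference -8.46, adjusted p = 0.00103). Fev, a serotonergic-type factor of endocrine precursors, went from 74, 46.2 and 56.6 CPM to 0.189, 0, 0 and 0 CPM. Rfx6, required for islet cell formation, fell from 115, 127 and 116 CPM to 0.598, 0, 0 and 0.455 CPM. Lhx1, a LIM-homeodomain factor, was at 22.8, 23.2 and 20.9 CPM in controls and was not counted in any mutant library, so that, with reads pooled over each group and 3 counts over the mutants as the floor, it was at least 792-fold lower.

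A second set of early factors was reduced but still present. Nkx2-2, needed for beta cell formation, had 191, 151 and 161 CPM in controls and 37.7, 48.9, 35.9 and 30.3 CPM in mutants, a log2 difference of -2.13 (SE 0.20, adjusted p = 0.000201). Cbfa2t3, a corepressor, and its relative Cbfa2t2 had log2 differences of -1.34 and -1.28. Tox3 was at -3.80, and Myt1 fell further, at -7.74. Sox4 and Sox11, which many progenitor cells express, had log2 differences of -0.08 (adjusted p = 0.888) and 0.42 (adjusted p = 0.487), and neither differed beyond its spread.

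Helix-loop-helix factors of the neurogenin and NeuroD families are known to favour the E-box CAGATG, searched for here on both strands, and 3 promoters of early factors that fell and hold it are shown here. RefSeq promoter entries of the same build, covering 250 bases before to 50 bases after the start, were found for 18 of the 24 early factors, and 5 held the motif on either strand (27.8%): Neurod2, Nkx2-2, Cbfa2t3, Nhlh1 and Insm2. Among genes with a promoter entry, the motif was in 181 of 1009 that fell (17.9%), 81 of 579 that rose (14%), 1925 of 13029 tested (14.8%) and 5635 of 32851 entries in the whole table (17.2%). A match describes letters only, and it is neither a site nor a cause. The 250 bases before the start are printed 5′ to 3′ on the gene's strand, with the motif in capitals (in Nkx2-2 it lies on the opposite strand and is printed as its complement).
Nkx2-2, chr2:147186403-147186652, minus strand: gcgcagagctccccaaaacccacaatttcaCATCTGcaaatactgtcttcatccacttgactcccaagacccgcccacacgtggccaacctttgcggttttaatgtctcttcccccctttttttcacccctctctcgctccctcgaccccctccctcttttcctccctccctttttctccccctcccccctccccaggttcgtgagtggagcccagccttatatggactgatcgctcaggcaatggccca
Neurod2, chr11:98329646-98329895, minus strand: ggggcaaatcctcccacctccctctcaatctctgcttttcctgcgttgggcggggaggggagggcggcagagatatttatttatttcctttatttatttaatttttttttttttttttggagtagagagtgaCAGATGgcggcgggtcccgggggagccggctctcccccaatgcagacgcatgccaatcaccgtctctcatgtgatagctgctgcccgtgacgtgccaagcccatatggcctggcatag
Nhlh1, chr1:172057597-172057846, minus strand: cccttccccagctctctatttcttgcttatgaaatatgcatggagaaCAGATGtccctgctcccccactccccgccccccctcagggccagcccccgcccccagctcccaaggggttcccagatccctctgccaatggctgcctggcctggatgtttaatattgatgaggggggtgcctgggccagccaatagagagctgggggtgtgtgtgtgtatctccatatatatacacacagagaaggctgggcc
The motif began 220 bases before the start in Nkx2-2, 118 in Neurod2 and 203 in Nhlh1. Neurod2, best known in neurons, was at 38.9, 15.9 and 16.3 CPM in controls and was counted in mutant library 1 alone, at 0.0315 CPM. Nhlh1, another neuronal helix-loop-helix factor, was at 15.9, 9.79 and 10.9 CPM in controls and was counted in mutant library 4 alone, at 0.0268 CPM. Of the 3 genes, Nkx2-2 was the one that kept a measurable level in every mutant library.

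Factors of mature islet cells fell in part. Of 20 tested, 11 fell and none rose, with a median log2 difference of -1.57, and 10 to 12 fell with 1 library left out. Pax6, a paired-box factor of all hormone cells, dropped from 207, 233 and 213 CPM to 0.661, 0, 0.179 and 0.107 CPM, and every mutant library was below 1 CPM. Isl1, a LIM-homeodomain factor, had a log2 difference of -6.26.

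Factors that pancreatic progenitors share with beta cells stayed at clear levels. Pdx1, needed for pancreas formation and later for beta cell function, had 217, 187 and 165 CPM in controls and 80.4, 72.9, 83.1 and 69.9 CPM in mutants, a log2 difference of -1.31 (SE 0.16, adjusted p = 0.00103). Nkx6-1, of trunk progenitors and beta cells, went from 571, 341 and 344 CPM to 98.6, 211, 123 and 94.9 CPM (log2 difference -1.67, SE 0.32, adjusted p = 0.0118). The groups did not overlap for either gene. The call of Nkx6-1 was lost without control library 2 (adjusted p = 0.0585) and without mutant library 3 (0.0537). Foxa1, Foxa2, Hhex and Glis3, which also act in earlier pancreatic epithelium, did not pass.

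Islet hormones, the end products of the lineage, were almost gone. Of 31 hormone and peptide genes, 23 could be tested and 15 fell, none rose, and 12 to 16 fell with 1 library left out. The median log2 difference was -7.33, or -4.68 with the 2 genes that no mutant library counted set at their bound. The summed level of the list was 6449, 5535 and 2317 CPM in controls and 15.6, 21.3, 15.9 and 12.4 CPM in mutants (exact permutation test, two-sided p = 0.0571, the smallest that 3 against 4 libraries allow).

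Ins2, the conserved insulin gene, had 2856, 2216 and 686 CPM in the controls and 1.10, 0, 0.537 and 1.39 CPM in the mutants (log2 difference -11.11, SE 0.82, adjusted p = 7.38e-05). Ins1, its near copy, with which reads may be shared, went from 1322, 1328 and 399 CPM to 0.661, 0, 0.0716 and 0.83 CPM. Within the controls, library 4 was the lowest for both. Gcg, which encodes glucagon, fell from 539, 825 and 430 CPM to 1.23, 0, 0.68 and 0.375 CPM (log2 difference -9.85, adjusted p = 3.99e-05). Sst, which encodes somatostatin, fell from 440, 178 and 96.2 CPM to 0.189, 0, 0.322 and 0 CPM.

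Hormones of the rarer islet cells fell with them. Ppy, encoding pancreatic polypeptide, had a log2 difference of -8.90, Pyy of -9.26 and Iapp, encoding the amyloid peptide co-secreted with insulin, of -10.20. Ghrl, which encodes ghrelin and marks epsilon cells, fell least among these: it was at 9.81, 15 and 8.93 CPM in controls and 2.08, 1.16, 1.75 and 1.88 CPM in mutants (log2 difference -2.69, SE 0.33, adjusted p = 0.00112). All mutant libraries counted Ghrl, with 66, 11, 49 and 70 reads. Penk, encoding enkephalins, had a log2 difference of 0.91 and did not pass (adjusted p = 0.191).

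**Figure D2:**
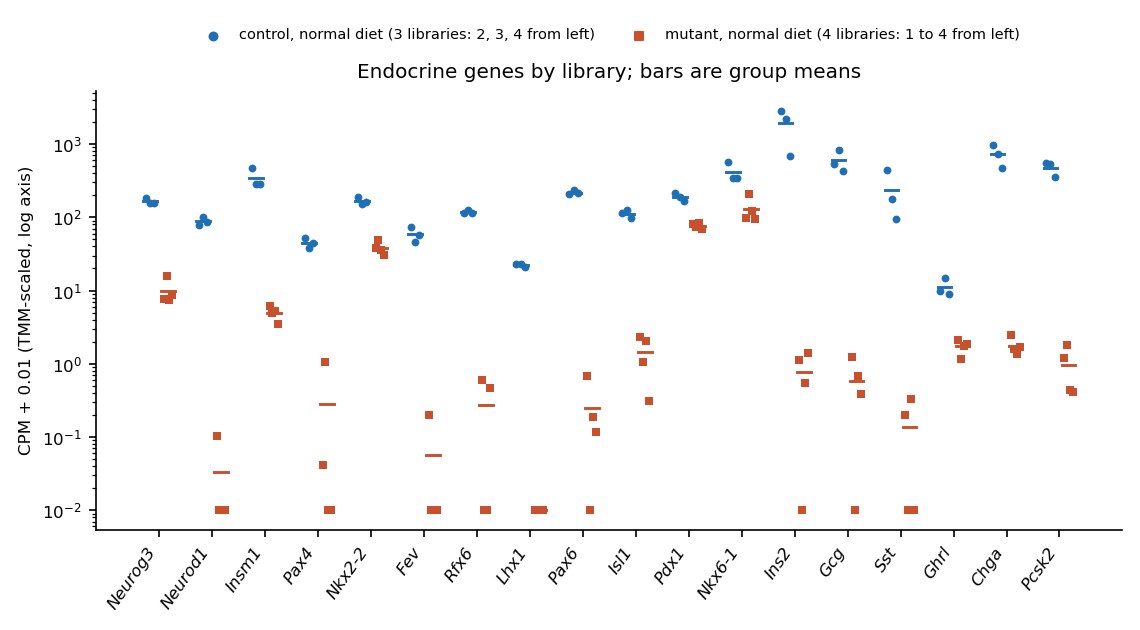
Level of 18 endocrine genes in each of the 7 libraries (CPM plus 0.01, log axis), with controls and mutants in different colours and bars at the group means. The gap between group means is widest for Neurod1, Ins2, Lhx1 and Sst and narrowest for Pdx1, Nkx6-1, Nkx2-2 and the hormone gene Ghrl, and no gene's groups overlap.

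The machinery that packs and releases hormones fell along with the hormones. Of 15 genes for granule cargo and prohormone processing, 14 fell, in every fit with 1 library left out as well, with a median log2 difference of -6.16. Chga, the granule protein chromogranin A, went from 974, 729 and 466 CPM to 2.45, 1.58, 1.36 and 1.66 CPM (log2 difference -8.66, SE 0.36, adjusted p = 1.06e-05). Pcsk2, a prohormone convertase, went from 545, 528 and 352 CPM to 1.20, 1.79, 0.429 and 0.402 CPM. Processing enzymes with wider roles kept more: Cpe, carboxypeptidase E, had a log2 difference of -4.04, and Pam, the amidating enzyme, of -2.33. Slc18a2, a monoamine transporter, was the member that did not pass (log2 difference -0.50, adjusted p = 0.611).

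Of 25 exocytosis genes tested, 17 fell and 1, Cadps2, rose, with a median log2 difference of -2.20. With 1 library left out, 14 to 19 fell, and the call of Cadps2 was lost without control library 2, 3 or 4 or mutant library 3 (highest adjusted p = 0.104). Syt13, a synaptotagmin of endocrine precursors, fell from 688, 445 and 326 CPM to 1.95, 5.70, 2.40 and 2.36 CPM (log2 difference -7.37, adjusted p = 3.33e-05). Syt7, a calcium sensor of insulin release, and Cadps, a priming factor, had log2 differences of -4.81 and -6.73.

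Of 41 ion channel genes tested, 20 fell and 2 rose (18 to 23 fell with 1 library left out), with a median of -1.25. Both subunits of the beta cell ATP-sensitive potassium channel were among those that fell. Abcc8, the sulfonylurea receptor, went from 642, 498 and 466 CPM to 11.5, 19.6, 19.3 and 17.9 CPM (log2 difference -4.97, SE 0.25, adjusted p = 1.63e-05). Kcnj11, the pore, went from 157, 116 and 104 CPM to 13.1, 20.3, 14.9 and 14.4 CPM (log2 difference -3.01, SE 0.22, adjusted p = 7.29e-05). Cacna1a and Cacna2d1, calcium channel subunits, had log2 differences of -4.41 and -4.05. Cacna1c and Cacna1d, L-type pores, had -2.99 and -1.23. The pair that rose, Kcnq1 and Kcnq5, had log2 differences of 0.88 and 1.53, and both calls were lost without control library 2 or 3 or mutant library 3, that of Kcnq5 also without control library 4 (highest adjusted p = 0.088 and 0.119).

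Genes that endocrine cells share with neurons also fell. Among 34 RNA-binding proteins of neuronal type and their relatives, 10 fell and none rose (median -0.72). Among 29 neurite and cytoskeleton genes, 12 fell and none rose (median -0.97). These counts moved with the libraries: they were 6 and 5 without control library 2, 7 and 6 without control library 3, 8 and 8 without mutant library 3 or mutant library 4, and 14 and 16 without mutant library 2.

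Celf3, a splicing regulator, went from 177, 130 and 135 CPM to 10.3, 5.07, 7.62 and 6.13 CPM (log2 difference -4.32, adjusted p = 3.32e-05). Rbfox3, the neuronal antigen NeuN, had a log2 difference of -5.28. Map1b, a microtubule protein, went from 437, 443 and 396 CPM to 28.5, 35.9, 40.8 and 17.9 CPM (log2 difference -3.79, adjusted p = 6.83e-05). Tubb3, neuronal tubulin, had a log2 difference of -4.01, with the call lost without control library 2 (adjusted p = 0.0627). For Celf3 and Map1b the highest mutant library was far below the lowest control.

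The repressor that keeps neuronal genes silent elsewhere moved the other way. Rest was at 41.2, 49.7 and 66.6 CPM in controls and 99.2, 80.4, 98.8 and 86.9 CPM in mutants (log2 difference 0.80, SE 0.20, adjusted p = 0.034). The groups did not overlap, but the call was lost without control library 2 or 3 or mutant library 1, 3 or 4 (highest adjusted p = 0.16). Rcor2, a corepressor, and Actl6b, the neuronal subunit of a chromatin remodeller, had log2 differences of -1.65 and -6.11; the call of Rcor2 was lost without control library 2 (adjusted p = 0.0695) or mutant library 3 (0.0604). Of the 27 chromatin genes that held all 3, 6 fell and 2 rose, and the number that fell was 1 without control library 2, 2 without mutant library 3, 3 without control library 3 or mutant library 1 or 4, and 9 without mutant library 2. Both chromatin rises, Rest and Uhrf1, were lost without control library 2 or 3 or mutant library 3 or 4. Ezh2, Dnmt1 and Hdac1, general chromatin enzymes, did not pass.

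Of 59 axon guidance genes, 7 rose (11.9% against 3.71% of all tested genes) and 6 fell (10.2% against 7.13%), with a median of 0.13. Of 29 adhesion genes, 1 rose, Epcam, and 4 fell, and the rise was lost without control library 2 or 3 or mutant library 1, 3 or 4. The number of adhesion falls was 3 without any library except mutant library 2, without which it was 9. Slit1, a secreted repellent, had a log2 difference of -5.0, and Ncam1, an adhesion molecule of islet cells and neurons, went from 49.3, 51.6 and 48 CPM to 16.6, 7.81, 18.3 and 10.1 CPM (log2 difference -1.90, adjusted p = 0.00375). Cdhr1, a cadherin-related protein, was at 25.6, 34.4 and 17.6 CPM in controls and was not counted in any mutant library, at least 943-fold lower on reads pooled over each group. Ntn1 (netrin 1) and Ephb4 (an ephrin receptor) rose, with log2 differences of 1.51 and 1.29, and all 7 rises of the list were lost without control library 2, control library 3 or mutant library 3, while 3 of the falls were counted without control library 2 or 3. Cdh1, the epithelial cadherin, Ctnnb1, Snai2 and Zeb1, genes of epithelial exit in many tissues, did not pass.

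Epithelial junction and matrix-receptor genes rose or did not pass. Of 33 junction and polarity genes, 6 rose (18.2%) and none fell (median 0.42). Of 32 integrins and laminins, 3 rose (9.38%) and none fell (median 0.63). Among all tested genes, 3.71% rose and 7.13% fell. Cldn10, a claudin of tight junctions, was at 17, 19.8 and 22 CPM in controls and 50.6, 54.9, 66.8 and 66.2 CPM in mutants (log2 difference 1.60, SE 0.19, adjusted p = 0.000881). Itga6, the laminin receptor subunit alpha 6, was at 262, 278 and 334 CPM in controls and 565, 607, 692 and 632 CPM in mutants (log2 difference 1.10, SE 0.16, adjusted p = 0.0033). Both were higher in each mutant library than in any control and kept their calls in all 7 fits with 1 library left out. Of the junction list, 1 gene rose without control library 2 or 3, 3 without control library 4 or mutant library 4, 2 without mutant library 3 and 11 without mutant library 2, a fit in which 3 junction genes also fell. DESeq2 gave 8 rises and 3 falls, and limma on log2 FPKM gave none of either. Of the integrins and laminins, 1 rose without control library 2 or 3, 2 without mutant library 3 and 10 without mutant library 2.

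Of 34 Notch genes, 4 rose (Notch1, Hes1, Jag1 and Lfng) and 4 fell (Numbl, Mfng, Maml3 and Dll3), 11.8% each way against 3.71% and 7.13% of all tested genes, with a median of 0.21. Notch1, the receptor, was at 170, 161 and 240 CPM in controls and 351, 464, 413 and 310 CPM in mutants (log2 difference 1.01, SE 0.21, adjusted p = 0.0176). Hes1, the Notch target that represses Neurog3, was at 31.6, 32.9 and 48 CPM and 62.4, 83.9, 73.1 and 70.9 CPM (log2 difference 0.95, SE 0.20, adjusted p = 0.0187). Neither gene's groups overlapped. Jag1, a ligand, and Lfng, which modifies the receptor, had log2 differences of 1.22 and 1.05.

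All 4 Notch rises were lost without control library 2, control library 3 or mutant library 3, where the highest adjusted p was 0.102 for Notch1, 0.107 for Hes1, 0.129 for Jag1 and 0.196 for Lfng; Lfng was also lost without control library 4 or mutant library 4. Among the genes that fell, Mfng, another receptor-modifying enzyme, went from 55.9, 35.1 and 34.9 CPM to 11.1, 7.92, 9.45 and 8.36 CPM (log2 difference -2.18, adjusted p = 0.000547), and Numbl, of the Numb family of Notch antagonists, had a log2 difference of -2.59. Maml3, a coactivator, had -1.52 and Dll3, a ligand-like inhibitor, had -1.30, whose call was lost in 6 of the 7 fits, all but the one without mutant library 2. Dll1, the ligand that neurogenin 3 is known to induce, did not pass (log2 difference 0.71, adjusted p = 0.173), nor did Rbpj, the pathway's DNA-binding factor.

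Of 15 hedgehog genes, 3 rose (20%). Hhip, a hedgehog antagonist that is itself a hedgehog target, was at 3.51, 2.55 and 5.50 CPM in controls and 22.9, 17.4, 15.2 and 20.4 CPM in mutants (log2 difference 2.30, SE 0.32, adjusted p = 0.00243). Gas1, a hedgehog co-receptor, was at 12.3, 10.6 and 12.4 CPM and 31.9, 78, 54.1 and 30.8 CPM (log2 difference 2.04, SE 0.35, adjusted p = 0.00684). Both held in all 7 fits. Smo also rose (1.07), and its call was lost without any control library or mutant library 3 (highest adjusted p = 0.159). The hedgehog target Ptch1 did not pass (log2 difference -0.56, adjusted p = 0.0837), nor did Gli1.

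Of 37 Wnt genes, 6 rose (16.2% against 3.71% of all genes, median 0.79), among them the receptors Fzd2 (log2 difference 1.46) and Fzd4 (1.21), and 1 fell. Of the rises, 1 was counted without control library 2 or mutant library 3 and none without control library 3, and the fall was lost without any control library or mutant library 3 or 4. Axin2, the usual readout of canonical Wnt signalling, did not pass. Of 33 TGF-beta and BMP genes, 2 rose (Bmp7 and Smad3) and 3 fell, of 28 FGF and EGF genes, 2 rose and 1 fell, and of 21 Hippo genes, 1 rose (Yap1) and 1 fell. These 3 lists had 4.76% to 7.14% of members higher and 3.57% to 9.09% lower, near the 3.71% and 7.13% of all tested genes. The rises of Bmp7, Smad3 and Yap1 were lost without control library 2 or 3, that of Yap1 also without mutant library 3. The 2 FGF and EGF rises, Erbb3 and Erbb2, were lost without control library 2 or 3 or mutant library 3 or 4, 1 of the 3 TGF-beta and BMP falls was counted without any control library or mutant library 3, and the Hippo fall was lost without control library 2 or 4 or mutant library 3. Nrg1, an ERBB receptor ligand, fell, with a log2 difference of -2.34 that kept its call in all 7 fits.

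Most trunk and duct genes did not pass. Of 19 tested, 2 rose (Krt18 and Clu) and 2 fell (Krt7 and Onecut2), with a median of 0.33. Those counts were 10.5% each way, against 3.71% higher and 7.13% lower among all tested genes. With 1 library left out, 0 to 5 rose and 1 to 3 fell, and the 5 were counted without mutant library 2. Sox9, the defining factor of the trunk progenitor, was at 100, 97.5 and 148 CPM in controls and 185, 170, 174 and 171 CPM in mutants (log2 difference 0.60, SE 0.18, adjusted p = 0.0723). Its groups did not overlap, but it did not pass. Krt7, a duct keratin that endocrine precursors also express, went from 318, 209 and 208 CPM to 104, 85.6, 80.6 and 94.4 CPM (log2 difference -1.43, SE 0.20, adjusted p = 0.00229). The calls of Krt18, Clu and Onecut2 were lost without any 1 of the control libraries, those of Clu and Onecut2 also without mutant library 3 or 4.

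Acinar and tip genes rose in the mutants. Of 26 tested, 10 rose and none fell (38.5% against 3.71% of all genes), with a median log2 difference of 1.15 and none below 0.29. Cpa1, the procarboxypeptidase that marks tip cells, was at 1092, 1113 and 1238 CPM in controls and 2349, 3651, 3817 and 3336 CPM in mutants (log2 difference 1.52, SE 0.21, adjusted p = 0.00203), 2.87-fold higher. Rbpjl, the acinar partner of PTF1A, was at 109, 83.2 and 131 CPM and 254, 360, 286 and 260 CPM (log2 difference 1.43, SE 0.21, adjusted p = 0.00342). Both were higher in every mutant library than in any control.

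Bhlha15 and Gata4, of acinar maturation and tip identity, had log2 differences of 1.38 and 1.58 and, like Cpa1 and Rbpjl, kept their calls in all 7 fits. Ptf1a, the factor that specifies acinar fate, was at 7.35, 7.72 and 10.4 CPM in controls and 18.9, 60.4, 32.8 and 25.7 CPM in mutants (log2 difference 2.01, SE 0.39, adjusted p = 0.0135), with the highest value in mutant library 2. Its call was lost without control library 2 (adjusted p = 0.0748) or 3 (0.0743). Ctrb1, encoding chymotrypsinogen, was at 2886, 3268 and 2084 CPM and 4378, 8195, 8703 and 9668 CPM (log2 difference 1.49, SE 0.29, adjusted p = 0.0136), with the call lost without control library 2 or 4 or mutant library 3. Cel, a lipase, did not pass (log2 difference 0.99, adjusted p = 0.0826), nor did Cpb1, Pnlip or Reg1.

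The count of acinar genes that rose was 4 without control library 2, 5 without control library 3 and 13 without mutant library 2, and it was 1 by limma on log2 FPKM. The list's summed level was 7427, 8913 and 6939 CPM in controls and 13220, 18400, 21950 and 23820 CPM in mutants (exact permutation test, two-sided p = 0.0571). The mutant libraries lay above the controls on this sum, and among them library 1 was the lowest.

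**Figure D3:**
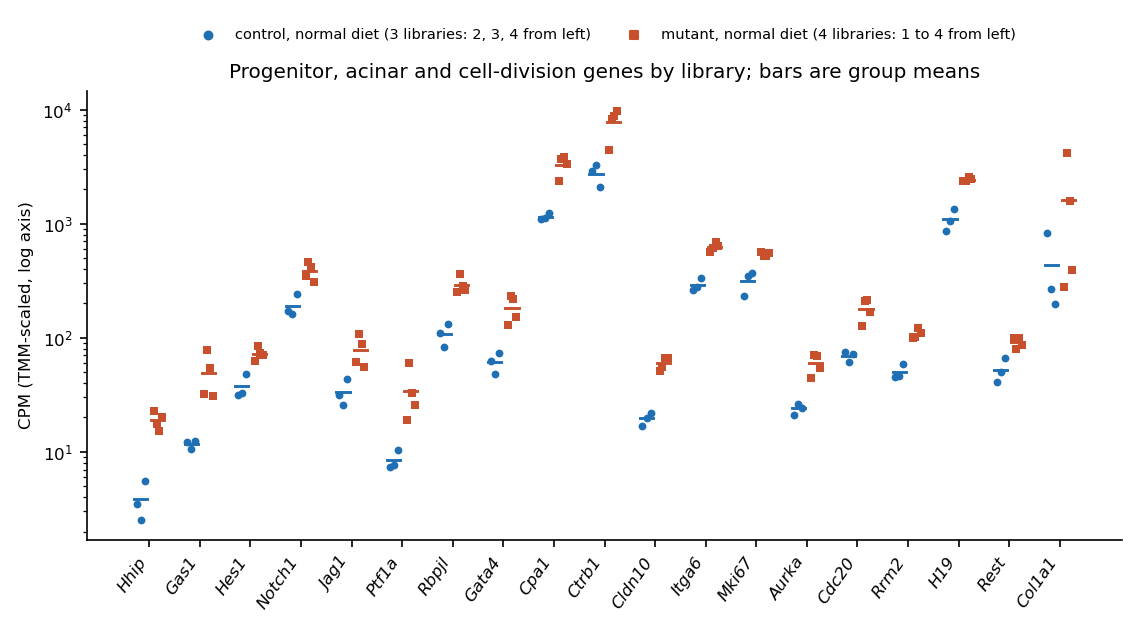
Level of 18 genes that rose in mutants, and of the mesenchyme marker Col1a1, in each of the 7 libraries (CPM, log axis), with controls and mutants in different colours and bars at the group means. The mutant values of each of the 18 genes lie above its control values, by gaps that are small beside those of the endocrine genes, while the groups overlap for Col1a1.

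Many genes of DNA replication and mitosis rose. Of 22 replication genes, 13 rose and none fell (59.1% against 3.71%), with a median log2 difference of 0.86, and of 24 mitosis genes, 14 rose and none fell (58.3%), with a median of 0.80. No member of either list had a log2 difference below 0.34. Summed replication levels were 1011, 1049 and 1365 CPM in controls and 2004, 2173, 2330 and 1967 CPM in mutants, and summed mitosis levels were 1093, 1393 and 1506 CPM and 2386, 2303, 2696 and 2648 CPM (exact permutation test, two-sided p = 0.0571 for each). Every mutant library was above every control on both sums.

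Rrm2, the ribonucleotide reductase subunit of S phase, was at 45.5, 46.1 and 58.7 CPM in controls and 98.7, 102, 121 and 111 CPM in mutants (log2 difference 1.11, SE 0.17, adjusted p = 0.00363). Aurka, a kinase of the mitotic spindle, was at 21.1, 26.5 and 24.4 CPM and 44.6, 71.1, 69.2 and 54.3 CPM (log2 difference 1.32, SE 0.21, adjusted p = 0.0054). Bub1b, Birc5 and Cdc20, of the spindle checkpoint and its release, had log2 differences of 1.06, 1.13 and 1.37, and these 5 genes kept their calls in all 7 fits. Mki67, the usual marker of cycling cells, was at 230, 348 and 368 CPM and 562, 519, 522 and 554 CPM (log2 difference 0.77, SE 0.19, adjusted p = 0.0328). The call of Mki67 was lost in every fit with 1 library left out except that without mutant library 2 (highest adjusted p = 0.113). Pcna did not pass (log2 difference 0.58, adjusted p = 0.202).

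How many replication and mitosis genes passed depended on single libraries. The counts were 1 and 5 without control library 2, 1 and 5 without control library 3, 8 and 9 without control library 4, 3 and 5 without mutant library 3, and 11 and 7 without mutant library 4. Without mutant library 2 they were 21 and 22. Library numbers of 25 or above alone gave 4 and 6, the mixed library added to the controls gave 5 and 9, and limma on log2 FPKM gave none of either, while DESeq2 gave 15 and 15. 

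Among 28 genes that govern entry to and exit from the cycle, 8 rose and 4 fell. Cdkn1a, an inhibitor of cyclin-dependent kinases that neurogenin 3 is known to induce, was at 85.1, 90.8 and 80.5 CPM in controls and 53.1, 55.9, 44.5 and 59.4 CPM in mutants (log2 difference -0.68, SE 0.16, adjusted p = 0.0258). Gadd45a, a stress and growth-arrest gene, fell further, from 34.3, 36.6 and 31.5 CPM to 5.89, 4.96, 3.19 and 3.11 CPM (log2 difference -3.0, SE 0.28, adjusted p = 0.000201). Ccnd1 and Ccnd2, the D-type cyclins, rose by 0.98 and 1.05. Cdkn1c, an inhibitor, did not follow Cdkn1a but rose, with a log2 difference of 0.99 (adjusted p = 0.0353).

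Of these, Gadd45a kept its call in all 7 fits. The calls of Cdkn1a, Ccnd1, Ccnd2 and Cdkn1c were each lost without control library 2, control library 3 or mutant library 3, and some without others (highest adjusted p = 0.137, 0.0896, 0.104 and 0.162). None of the 8 rises was counted without control library 2, control library 3 or mutant library 3, and 3 and 4 were counted without control library 4 and mutant library 4. Of the 4 falls, 1 was counted without control library 2, and 2 without control library 3 or 4 or mutant library 3. Cdkn1b, which encodes p27, did not pass (adjusted p = 0.131).

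**Figure D4:**
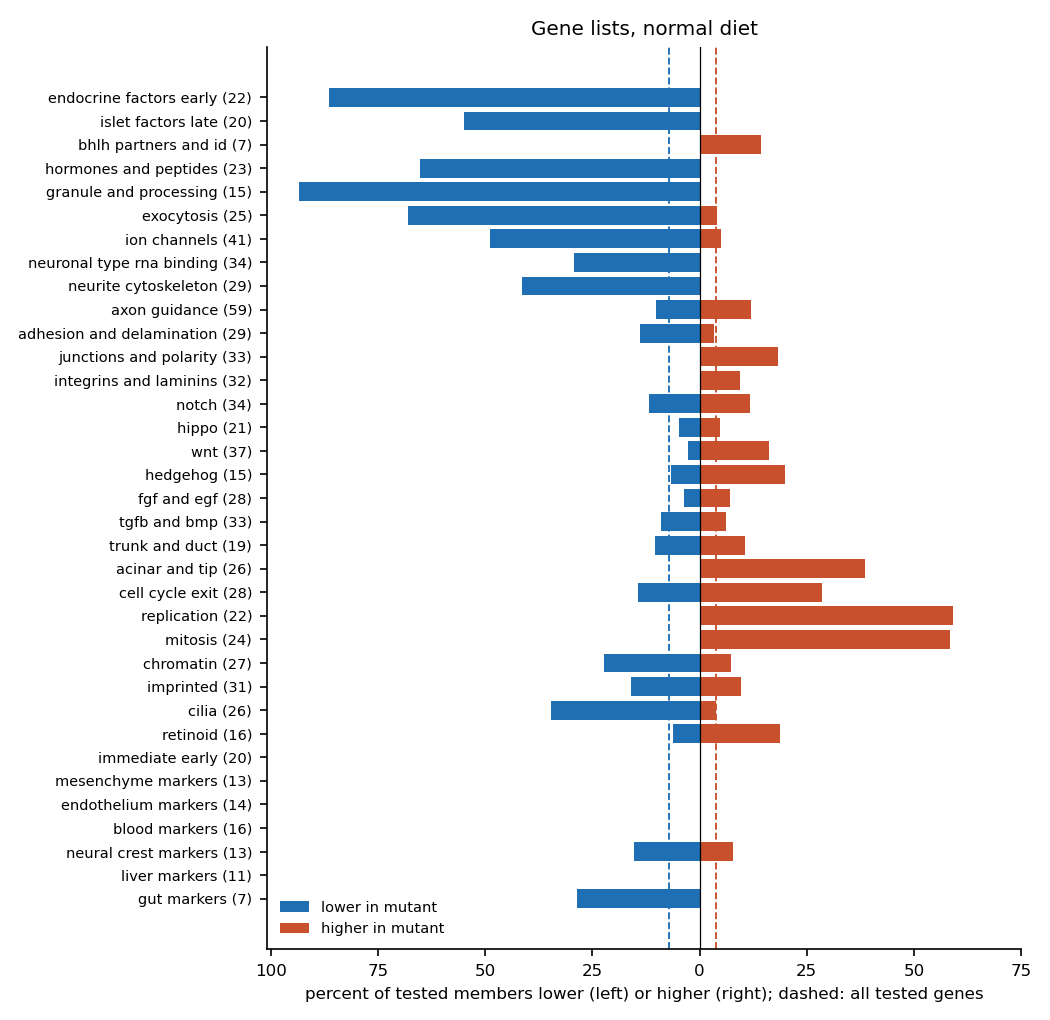
Percent of tested members that rose (one side) and fell (other side) in each gene list, with dashed lines at the background of all tested genes, 3.71% higher and 7.13% lower. Endocrine, granule and exocytosis lists reach 55% to 93.3% lower, replication and mitosis 59.1% and 58.3% higher, and acinar genes 38.5% higher, while markers of mesenchyme, endothelium, blood and liver show no called member.

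Imprinted genes, expressed from 1 parental copy, moved in both directions. Of 31, 5 fell and 3 rose. Peg10, a paternally expressed retrotransposon-derived gene, went from 764, 964 and 691 CPM to 32.6, 22.2, 36.9 and 26.9 CPM (log2 difference -4.76, SE 0.24, adjusted p = 1.63e-05), and every mutant library was more than 10 times below the lowest control. Nnat, which lies in an intron of Blcap, had a log2 difference of -4.56, while Blcap itself did not pass (-0.59, adjusted p = 0.101), and Gnas, whose locus holds several overlapping transcripts, had -2.58. H19, a maternally expressed noncoding RNA of growing embryonic tissue, rose from 870, 1063 and 1334 CPM to 2364, 2343, 2559 and 2462 CPM (log2 difference 1.16, SE 0.18, adjusted p = 0.00457). Meg3, Dlk1 and Igf2 did not pass. The number that fell was 3 without any control library or mutant library 4 and 8 without mutant library 2, and 1 gene rose without control library 2 or 3 or mutant library 3.

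Of 26 cilia genes tested, 9 fell and 1 rose. Dnah9, an axonemal dynein, went from 116, 128 and 80.5 CPM to 1.51, 0.528, 1.61 and 1.21 CPM (log2 difference -6.40, SE 0.34, adjusted p = 1.92e-05). Rfx3 and Rfx2, transcription factors of ciliary genes with a known role for Rfx3 in islets, had log2 differences of -1.72 and -1.92. Foxj1, the factor of motile cilia, moved against them, from 6.74, 5.33 and 6.73 CPM to 21.2, 29, 14.9 and 20.1 CPM (log2 difference 1.76, SE 0.27, adjusted p = 0.00419). All 4 kept their calls with any 1 library left out, and 6 genes of the list fell without control library 2 or 3. Of 16 retinoid genes, 1 fell, Rbp4, the retinol carrier, from 258, 243 and 160 CPM to 38.2, 20.3, 19.6 and 25.9 CPM (log2 difference -3.08, adjusted p = 0.000196). The rises of Rara and Aldh1a1 were lost without any 1 of the control libraries or mutant library 3.

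Other large rises among genes with an established name and a mean of at least 5 CPM, beside those of Hhip, Gas1 and Ptf1a, were those of Chst2, Matn4, Nr0b2, Gfi1, Cenpm and Ifrd2, with log2 differences of 2.04 to 1.82. Their calls were lost without control library 2 or 3, all but that of Nr0b2 also without control library 4 or mutant library 3. Among neural crest markers, Sox10, which defines that lineage, did not pass (log2 difference 0.97, adjusted p = 0.431), and Gfra3 and Th fell (-3.73 and -3.29), Th not without control library 2 or 3.

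Markers of other cell types were present in all libraries, and most of their summed levels overlapped between groups. None of 13 mesenchyme markers, 14 endothelial, 16 blood, 11 liver and 20 immediate-early genes passed in either direction. Every tested mesenchyme and endothelial marker was still estimated higher in the mutants. Their median log2 differences were 0.84 and 0.83, near those of the replication and mitosis lists (0.86 and 0.80), and their lowest were 0.07 and 0.30. The medians of blood, liver and immediate-early genes were -0.45, -0.05 and -0.41. The summed mesenchyme level was 2005, 935 and 705 CPM in controls and 946, 8947, 3978 and 1250 CPM in mutants (exact permutation test, two-sided p = 0.286), and it was highest in mutant libraries 2 and 3. Col1a1, a fibroblast collagen, ran over the same range, at 835, 266 and 199 CPM and 279, 4197, 1590 and 392 CPM. Summed endothelial markers were 200, 107 and 298 CPM and 413, 455, 441 and 234 CPM. Summed blood markers ran from 312 to 1012 CPM and summed liver markers from 319 to 723 CPM, with overlapping groups. No mesenchyme or endothelial marker was at 0 in any library. Itgam among blood markers and Apoa2, Fga and Serpina1a among liver markers were at 0 in 1 library each. Of 7 gut markers tested, Cdx2 and Tff3 fell, both calls being lost without any control library or mutant library 1 or 4. The part of these cells in the genes that rose was not tested.

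Of 151 microRNA loci tested, 3 fell and none rose, a smaller share than the 7.13% of all tested genes that fell. The 3 are shown because their products are known in islets and neurons. The libraries counted reads over hairpin loci, not mature microRNAs, so the values describe the loci. Mir7-2 (chr7:78888277-78888373) had 40, 64 and 86 reads in controls and 6, 0, 0 and 0 in mutants (adjusted p = 0.0204). Mir153 (chr12:117250817-117250885) had 12, 29 and 13 reads and 0, 0, 1 and 0 (adjusted p = 0.0175). It lies in an intron of Ptprn2, which fell from 840, 583 and 494 CPM to 26.3, 57.3, 41.3 and 41 CPM, and the counts cannot separate the locus from its host. Mir132 (chr11:75173682-75173747) had 31, 12 and 11 reads and 2, 0, 1 and 0 (adjusted p = 0.0436).
The mature sequences these loci encode, from RefSeq for the same build, are printed 5′ to 3′ with the seed, bases 2 to 8, in capitals. No pair shares a seed.
mmu-miR-132-5p: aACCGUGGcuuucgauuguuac
mmu-miR-132-3p: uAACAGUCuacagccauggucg
mmu-miR-153-5p: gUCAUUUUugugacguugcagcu
mmu-miR-153-3p: uUGCAUAGucacaaaagugauc
mmu-miR-7a-5p: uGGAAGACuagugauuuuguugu
mmu-miR-7a-2-3p: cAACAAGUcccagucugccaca
Each of the 3 loci was lower in all mutant libraries than in any control, and each call was lost without control library 2, 3 or 4, those of Mir7-2 and Mir153 also without mutant library 3, that of Mir153 without mutant library 4 and that of Mir132 without mutant library 1. Mir132 had too few reads to be tested without mutant library 3 or 4. The highest adjusted p was 0.087 for Mir7-2, 0.104 for Mir153 and 0.173 for Mir132. Mir7-1, the other locus on chromosome 13 that encodes miR-7a-5p, did not pass (adjusted p = 0.85), and neither did Mir375, a microRNA locus of islet cells, at 106, 43 and 38 reads in controls and 7, 10, 16 and 2 in mutants (adjusted p = 0.172).

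The same genotype comparison was made in embryos of dams on high-fat diet (HFD, 3 control and 3 mutant libraries) and low-protein diet (LPD, 4 and 4). A model of all 21 libraries gave 3233 genes that rose and 3147 that fell on the normal diet (13.7% and 13.3% of 23630 tested). In it no gene's genotype difference on the normal diet passed as differing from that on HFD or LPD by edgeR. Unadjusted p lay below 0.05 for 1676 and 1383 genes, and the smallest adjusted p was 0.639 and 0.832. DESeq2 gave 15 genes for HFD (0.0381% of 39403) and 0 for LPD. The spread between replicates was largest in the normal-diet mutants: the median SD of log2 CPM over genes was 0.401 there and 0.113 to 0.246 in the other 5 groups, with 0.241 in the normal-diet controls.

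Neurog3 differed by a similar amount on each diet, with log2 differences in this model of -4.05 (SE 0.39) on the normal diet, -3.63 (SE 0.43) on HFD and -3.63 (SE 0.37) on LPD. The estimates for Insm1 and Ins2 were spread more widely, but their errors were larger too. Insm1 differed by -6.07 (SE 0.77), -5.10 (SE 0.83) and -4.42 (SE 0.69). Ins2 had mean mutant levels of 0.869 CPM on the normal diet, 8.63 CPM on HFD and 49.3 CPM on LPD, with log2 differences of -11.01 (SE 2.15), -6.32 (SE 1.97) and -4.27 (SE 1.54). Those of Ins2 on HFD and LPD did not pass on their own (adjusted p = 0.084 and 0.0752), and the differences between diets did not pass either.

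Among genes that rose, the estimates named here were highest on the normal diet, but no difference between diets passed. Hhip was at 2.37, 1.33 and 1.37 and passed on each diet. Cpa1 was at 1.58 (SE 0.28), 0.56 (SE 0.28) and 1.07 (SE 0.25), and did not pass on HFD (adjusted p = 0.399), where its mean control level was 3530 CPM against 1250 CPM on the normal diet. Ptf1a was at 2.06, 0.34 and 1.03, and Aurka at 1.37, 0.37 and 0.66, with adjusted p for the difference between normal diet and HFD of 0.639 for each.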

How the data were processed

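Strand-specific RNA libraries from sorted cells were compared between 4 mutant and 3 control samples. The authors, per the submitters' processing notes, trimmed with cutadapt 2.10, aligned with STAR 2.7.8a and counted with featureCounts 2.0.2 on GRCm38.p6. Neither the strand setting of counting nor how duplicates were treated is stated in the sources used here. Deposited counts are in a table that holds whole-number counts per gene with no normalization. The deposited FPKM table was made by the authors, and FPKM rebuilt from the counts differed from it by a median relative 3.88e-05. The deposited statistics give percent of duplicate reads per library. Spreadsheet dates in place of gene names (26) were matched back by identifier, and 31 repeated symbols were given a suffix.

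Counts were tested with edgeR 4.0.16 (quasi-likelihood, robust, filterByExpr, TMM) on the 7 libraries in R 4.3.3. Diets were compared in a model of 21 libraries. Per-value tests were exact permutations, two-sided, which cannot go below 0.0571. A gene at 0 in all mutants had its bound set from 3 counts summed over the mutants and reads pooled over the controls, which covers counting error only. DESeq2 1.42.0, limma 3.58.1 on log2(FPKM + 1) of genes above an FPKM minimum of 0.1, and other settings were alternatives. The model was tested on simulated data.

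The members and the 35 gene lists were chosen with earlier results of these data known. Named genes were the 10 highest and 10 lowest among passing genes of at least 5 mean CPM without overlap, up to 4 passing and 2 other abundant members of each list, and 16 fixed genes. Further list members and genes named beside them were chosen after their values were seen. Some genes are not reported here.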

Additional observations from a re-analysis of the deposited data

Results flagged for a closer look

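Of 251 groups of 4 mutant values examined, 21 had 1 library far from the other 3, by a gap that took up most of the range (Dixon's 95% limit). In 11 of the 21 the other 3 libraries were all at 0, where any read passes the limit, so the chance rate of about 1 in 20 does not apply to the count. Mutant library 2 stood high in 6 of them. It had 15.8 CPM of Neurog3 where the other mutants had 7.48 to 8.65, and 1.06 CPM of Pax4, 0.845 CPM of Irx2, 5.70 CPM of Syt13 (others 1.95 to 2.40) and 7.81 CPM of Acvr1c (others 5.01 to 5.19). It also had 252 CPM of Kcnk1, a potassium channel, against 39.9 to 66.9 in the others. This library had the largest share of Gm26917 and of duplicates, and their part in these values was not tested.

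Several endocrine genes were counted in a single mutant library. Mutant library 1 was the only one with Neurod1 (0.0944 CPM), Neurod2 (0.0315 CPM), Fev (0.189 CPM), Gip (0.0315 CPM), Gast (0.0944 CPM), Ffar1 (0.346 CPM), G6pc2 (0.0944 CPM) and Mir7-2 (0.189 CPM). Mutant library 4 was the only one with Nhlh1 (0.0268 CPM) and Slc30a8 (0.0804 CPM), and mutant library 3 the only one with Mir153 (0.0358 CPM). Cdx2, an intestinal factor, was at 0.251 CPM in mutant library 3 and 0 to 0.0315 CPM in the others.

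Ctnnb1 was at 713 CPM in mutant library 3 and 568 to 586 CPM in the others. Gas5 was at 129 CPM in mutant library 4 and 149 to 152 CPM in the others. Summed blood markers were at 836 CPM in mutant library 4 and 312 to 386 CPM in the others, and the controls ran from 377 to 1012 CPM.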

How the results depend on the processing

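The counts of genes that rose and fell, 780 and 1499, were 3233 and 3147 in the model of 21 libraries, 1352 and 2321 by DESeq2, 217 and 635 with the mixed library added to the controls, and 143 and 591 with library numbers of 25 or above alone. They were 1178 and 2104 without the 3 libraries of over 70% duplicates. Limma on log2(FPKM + 1), without TMM scaling and with Gm26917 in the totals, gave 10 and 1227. With 1 library left out, 67 to 1716 rose and 759 to 2312 fell, and the differences between diets stayed at 0 by edgeR for both diets. DESeq2 gave 15 for normal diet against HFD. With DESeq2's size factors, no filter, a term for library number or Gm26917 left out, both counts stayed within 1.5 times.

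Risers made up 34.2% of calls, but 50.7% with 21 libraries, 47.4% with the replicate block, 19.5% with numbers of 25 or above and 0.808% with limma. The median log2 difference of all genes was -0.04, and -0.239 with limma, -0.156 with the block, -0.136 by DESeq2 and -0.107 with no filter. No call changed direction in any of these fits except with the mixed library as control, where 28 genes had the opposite sign with no call, among them Aldh1a1 (-0.86, adjusted p = 0.714).

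Deviations from the group mean correlated at 0.343, -0.0154 and 0.0182 for same-numbered libraries, and at -0.361 to 0.4 for differently numbered ones. With 3 same-numbered pairs, these values cannot decide whether the numbers pair the libraries. With the replicate number as a block 1407 rose and 1560 fell, of which 706 and 1247 were called without it. Of 211 genes examined singly, 93 of 110 that fell and 18 of 70 that rose kept their call with any 1 library left out. Low counts in the mutants limit the size of the largest falls.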

Other observations

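Apart from Pcsk2os1, the genes in this and the following 2 paragraphs were chosen after their values were seen and were in no list. Glp1r, the receptor for the gut hormone GLP-1, was at 33.4, 34.1 and 19.3 CPM in controls and 0.346, 0, 0.537 and 0.616 CPM in mutants, a log2 difference of -6.06, and Gipr, the receptor for GIP, had -5.29. Ffar1, a fatty acid receptor, and G6pc2, an islet glucose phosphatase, had -8.65 and -9.41, and each was counted in 1 mutant library. Gnao1, a G protein subunit of endocrine cells and neurons, went from 1013, 512 and 454 CPM to 4.6, 13.1, 5.40 and 3.38 CPM (-6.69). Scgn, a calcium-binding protein of islets, had -10.03.

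Of 2522 long noncoding RNAs tested, 155 fell and 15 rose, smaller shares than the 7.13% and 3.71% of all tested genes. Dbpht2 was at 131, 192 and 125 CPM in controls and 0.0315, 0, 0.322 and 0.0804 CPM in mutants, and Miat at 279, 172 and 201 CPM and 7.46, 8.76, 6.44 and 1.5 CPM. Pcsk2os1, antisense to Pcsk2, was at 30.6, 22.8 and 16.5 CPM in controls and was not counted in mutants, at least 799-fold lower on reads pooled over each group. Whether counting used the strand is not stated in the sources at hand, so reads of Pcsk2os1 and Pcsk2 may not be separated. Gas5 and Snhg15, hosts of small nucleolar RNAs, rose by 0.82 and 1.11; both calls were lost without control library 2 or 3, that of Snhg15 also without control library 4 or mutant library 3.

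Phgdh, the first enzyme of serine synthesis, was at 205, 127 and 185 CPM in controls and 344, 848, 723 and 425 CPM in mutants (log2 difference 1.76), with the call lost without control library 3 (adjusted p = 0.0736). The next enzymes of that pathway, Psat1 and Psph, did not pass (adjusted p = 0.115 and 0.0954). Cbs, which condenses serine with homocysteine, rose by 1.49, and Smoc2, a matrix protein, by 1.68, and both kept their calls with any 1 library left out.

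The normal-diet library of mixed genotype lay between the groups for several genes. On CPM taken outside Gm26917, it had 94.5 CPM of Neurog3, against 237 to 271 in controls and 10.1 to 20.3 in mutants, and 11.2 CPM of Neurod1, against 116 to 154 and 0 to 0.144. Its 1741 CPM of Ins2 lay within the control range of 1054 to 4155, while its 19.8 CPM of Gcg lay far below the control range of 660 to 1257. Its Cpa1, at 2311 CPM, lay between the control range of 1588 to 1900 and the mutant range of 3581 to 5132. Col1a1 was at 4729 CPM, above the controls (305 to 1214) and within the mutants (425 to 5378).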
